A study of Mus musculus with 6 samples.

Results

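Viral restriction factors are cellular proteins that block a step in the life cycle of a virus. The 9 genes described here, *Mx1*, *Mx2*, *Rsad2*, *Bst2*, *Samhd1*, *Samd9l*, *Sp100*, *Apobec3*, and *Isg20*, were taken by their symbols from a table of 26264 genes. All 9 had a mean normalized count of at least 10 and were tested, as were 17404 genes in all. Most of them are interferon (IFN)-stimulated genes. IFNs signal through receptors to transcription factors that bind a promoter sequence called the IFN-stimulated response element (ISRE), and IRF1, a transcription factor that is itself induced by IFN-γ, binds closely related sequences. Stem cells are known to keep some of these genes on without infection, whereas most differentiated cells turn them on once they are exposed to IFN.

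Bulk RNA sequencing was done on hematopoietic stem cells (HSCs) sorted from bone marrow of untreated female mice at 8 weeks of age. One group was 3 wild-type (WT) C57Bl/6 mice and the other was 3 *Irf1-/-* mice (B6.129S2-Irf1 tm1Mak/J), with 1 library per mouse, named by replicate numbers 2, 3, and 4. IRF1 is missing from the whole body of the *Irf1-/-* mice, so effects of its loss in HSCs and in the cells around them cannot be told apart. Between 43138521 and 59658080 reads per library were assigned to genes. A normalized count is the number of reads of a gene divided by 1 size factor per library, and the libraries hold no molecular identifiers, so reads are not independent molecules. In these bulk samples, fewer cells of a type and less RNA per cell cannot be told apart.

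*Irf1* itself had normalized counts of 9267, 9524, and 9287 in *Irf1-/-* replicates 2, 3, and 4 and of 10122, 11120, and 12057.5 in the WT replicates of the same numbers. The groups did not overlap, but transcripts of the targeted gene were still counted in every *Irf1-/-* library (limma, log2 fold change −0.24, SE 0.088, adjusted *P* = 0.170). The cell label was checked against markers. All 8 HSC markers were tested, led by *Kit*, and their summed normalized counts were between 181373 and 215869 in the 6 libraries. Of the 8, *Fgd5*, *Procr*, *Mecom*, and *Slamf1* were higher in all *Irf1-/-* libraries, *Ly6a* was lower in all of them, and the others overlapped. *Fgd5* was called higher in *Irf1-/-* HSCs (limma, log2 fold change 0.83, adjusted *P* = 9.1e-05). *Procr* was under the fold change threshold (limma, log2 fold change 0.52, adjusted *P* = 0.0112), and of the 6 fits that each left out 1 library it just passed in that without WT replicate 2 (0.5803, adjusted *P* = 0.0149). *Ly6a*, which encodes the HSC marker Sca-1, was also under the threshold (limma, log2 fold change −0.43, adjusted *P* = 0.0245, or 0.0176 to 0.115 with 1 library left out).

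Markers of other cell types were summed in each library. Summed normalized counts over the libraries were between 2642 and 3077 for 5 B cell markers (led by *Cd79b*), between 146 and 371 for 5 T cell markers (led by *Cd4*), and between 406 and 867 for 4 natural killer cell markers (led by *Klrb1c*, with *Gzma* listed at 0 in all 6 libraries). They were between 23549 and 31976 for 5 monocyte and macrophage markers (led by *Lyz2*), between 77.8 and 288 for 5 dendritic cell markers (led by *Clec9a*), and between 318 and 416 for 4 mast cell and basophil markers (led by *Cpa3*). *Ly6c2*, a small part of the monocyte and macrophage sum, was uneven and not called. It had 2.47, 808, and 60.2 normalized counts in WT replicates 2, 3, and 4 and 168, 181, and 3.11 in the *Irf1-/-* replicates. In the dendritic cell and neutrophil sums, WT replicate 4 stood apart. Its dendritic cell sum was the 288 above, and the next highest was 160 in *Irf1-/-* replicate 2. The 6 neutrophil markers, led by *Ngp*, summed to 7576 in WT replicate 4, against 175 and 131 in WT replicates 2 and 3 and 222, 308, and 575 in *Irf1-/-* replicates 2, 3, and 4. The most abundant of them, *Ngp*, was not called, but without WT replicate 4 it was called higher (limma, log2 fold change 1.67, adjusted *P* = 0.0449).

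Other markers moved with genotype. The 5 megakaryocyte markers, led by *Itga2b*, summed to 40363, 24765, and 35754 in *Irf1-/-* replicates 2, 3, and 4 and to 47319, 60305, and 45164 in the WT replicates, with *Pf4* and *Gp1bb* called lower. The 5 erythroid markers, led by *Car1*, summed to 1761, 663, and 1046 in *Irf1-/-* and to 3102, 2380, and 3838 in WT HSCs, with *Klf1* and *Car1* called lower and the globin genes *Hbb-bt* and *Hba-a1* listed at 0 in all 6 libraries. The 4 markers of multipotent and other progenitors, led by *Cd34*, summed to 20408, 26242, and 21294 in *Irf1-/-* and to 19679, 17868, and 20139 in WT HSCs, with *Flt3* called higher. Leaving out single libraries ended 3 of these calls. *Klf1* lost its call without *Irf1-/-* replicate 2 (limma, adjusted *P* = 0.0583) or 3 (0.0700) and without WT replicate 2 (0.117) or 3 (0.109). *Car1* lost it without *Irf1-/-* replicate 3 (limma, adjusted *P* = 0.0603) or 4 (0.0681). *Flt3* lost it without *Irf1-/-* replicate 2 (limma, adjusted *P* = 0.0922), 3 (0.127), or 4 (0.0747) and without WT replicate 3 (0.117). The part of these shifts in the differences of the restriction factors was not tested.

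*Irf1-/-* HSCs had lower transcript levels of 2 of the 9 restriction factors, *Mx1* and *Isg20*, and none was called higher. To be called, a gene needed a limma adjusted *P* below 0.05 together with a log2 fold change beyond 0.58 in either direction. By this rule 0.954% of all tested genes were called lower and 0.96% higher. Without the threshold on the fold change, 3 of the 9 were lower, the third being *Rsad2*, against 1.49% of tested genes. In 4 of the 9 (*Mx1*, *Isg20*, *Rsad2*, and *Sp100*), all *Irf1-/-* libraries lay below all WT libraries, which held for 9.27% of tested genes. An exact permutation of the libraries returned *P* = 0.1 for each of these 4 genes, and with 3 mice per group no lower value is possible.

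The count was the same in the count models but not in every form of limma, since without the intensity trend limma called 0 of the 9. On recovered whole reads, edgeR called the 2 genes lower and 0 higher (0.927% of 17362 genes lower and 0.933% higher). DESeq2 did the same (1.6% lower and 2.25% higher of the 13094 genes it tested). At an unadjusted *P* under 0.05 in limma, 4 of the 9 were lower, against 8.07% of tested genes, and 0 were higher, against 8.38%. The log2 fold change was negative for 8 of the 9 genes, although that of *Samd9l* turned positive after quantile normalization. The median of the 9 was −0.23, whereas the median of all tested genes was −0.0028 (quartiles −0.17 and 0.20).

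**Figure D1:**
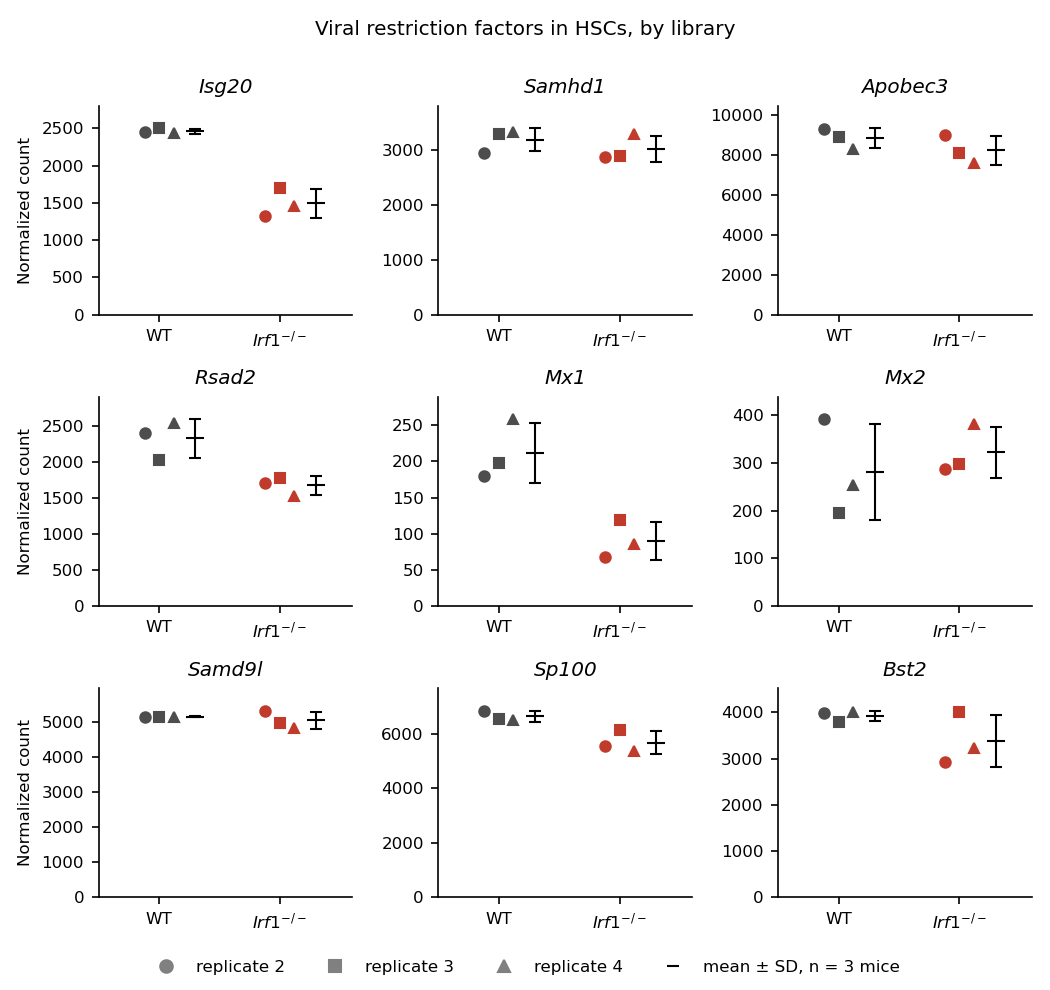
Normalized counts of the 9 restriction factors (vertical axes, starting at 0) in WT and *Irf1-/-* HSCs, with 1 symbol per library and the mean ± SD of 3 mice beside each group. The groups are apart for *Isg20*, *Rsad2*, *Mx1*, and *Sp100* and overlap for the other 5 genes.

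Isg20, Samhd1, and Apobec3 act on nucleic acids or on nucleotides. *Isg20* encodes an exonuclease that degrades RNA and so limits many RNA viruses. Its normalized counts were 2448, 2501, and 2432 in WT replicates 2, 3, and 4 and 1326, 1698, and 1452 in *Irf1-/-* replicates 2, 3, and 4. The 3 WT libraries lay close together (coefficient of variation 1.45%), the *Irf1-/-* libraries were more spread (12.7%), and the groups were far apart. The mean was 2460 ± 35.8 (SD, *n* = 3 mice) in WT and 1492 ± 189 in *Irf1-/-* HSCs, or 60.6% of WT, with a log2 fold change of −0.73 (limma, SE 0.11, adjusted *P* = 0.00248). *Isg20* was still called in all 6 fits that dropped a single library (limma, log2 fold change −0.83 to −0.65, highest adjusted *P* = 0.0174). The call was lost only when limma was run without its intensity trend (adjusted *P* = 0.127).

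*Samhd1* encodes a triphosphohydrolase that breaks down deoxynucleotides (dNTPs) and thereby starves reverse transcription. Its normalized counts were 2946, 3275, and 3326 in WT replicates 2, 3, and 4 and 2869, 2879, and 3274 in the *Irf1-/-* replicates. The groups overlapped, since *Irf1-/-* replicate 4 was above WT replicate 2 (limma, log2 fold change −0.082, 95% confidence interval −0.29 to 0.13, adjusted *P* = 0.764). *Apobec3* encodes the cytidine deaminase of mice that is packaged into retroviral particles and restricts murine leukemia viruses. It had 9295, 8858, and 8284 normalized counts in WT and 8960, 8099, and 7556 in *Irf1-/-* replicates 2, 3, and 4. Here too the groups overlapped (limma, log2 fold change −0.10, 95% confidence interval −0.30 to 0.091, adjusted *P* = 0.653). *Apobec3* overlaps *Cbx7* and *D730005E14Rik* in the RefSeq genes of assembly GRCm38.p6. The strand setting of the counting is not given in the sources used here. Reads of the overlaps could have been assigned to any of these genes or left out.

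*Rsad2* encodes viperin, which converts a cytidine nucleotide into a chain terminator of viral RNA synthesis. It had 2407, 2038, and 2553 normalized counts in WT replicates 2, 3, and 4 and 1711, 1788, and 1536 in *Irf1-/-* replicates. The lowest WT library was above the highest *Irf1-/-* library, and WT replicate 4 was the highest of all. The *Irf1-/-* mean of 1678 ± 129 (SD, *n* = 3 mice) was 72.0% of the WT mean of 2332 ± 266. The difference passed the threshold on the adjusted *P* but not that on the fold change, so *Rsad2* was not called (limma, log2 fold change −0.47, SE 0.11, adjusted *P* = 0.0391). The adjusted *P* stayed under 0.05 without WT replicate 3 (limma, adjusted *P* = 0.0301). It did not without *Irf1-/-* replicate 2 (limma, adjusted *P* = 0.107), 3 (0.0505), or 4 (0.185) or without WT replicate 2 (0.141) or 4 (0.0702). Nor did it after quantile normalization (limma, adjusted *P* = 0.0506) or without the intensity trend (0.274). Over the 6 fits that left out 1 library the log2 fold change of *Rsad2* ranged from −0.57 to −0.40.

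*Mx1* and *Mx2* encode dynamin-like GTPases that trap viral ribonucleoproteins, *Mx1* in the nucleus and *Mx2* in the cytoplasm. C57BL/6 mice are known to carry defective alleles of both, and RefSeq classes both as transcribed pseudogenes in this strain, whereas the other 7 genes are protein coding. Transcripts of the pair can thus be measured without a functional protein. *Mx1* had 179, 197, and 258 normalized counts in WT replicates 2, 3, and 4 and 67.2, 118, and 85.1 in the *Irf1-/-* replicates. Every *Irf1-/-* library was below every WT library, with WT replicate 4 the highest and *Irf1-/-* replicate 2 the lowest. These values rest on 63 to 240 reads per library.

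The *Mx1* mean fell from 212 ± 41.3 (SD, *n* = 3 mice) in WT to 90.2 ± 26.0 in *Irf1-/-* HSCs, or 42.6% of WT (limma, log2 fold change −1.24, SE 0.30, adjusted *P* = 0.0368). This was the largest fold among the 9 genes, but the call depended on single mice. It was kept without *Irf1-/-* replicate 3 (limma, log2 fold change −1.45, adjusted *P* = 0.0291). It was lost without *Irf1-/-* replicate 2 (limma, adjusted *P* = 0.130) or 4 (0.121) and without WT replicate 2 (0.0635), 3 (0.109), or 4 (0.0737). The call was also lost without a filter on low values (limma, adjusted *P* = 0.0562) and without the intensity trend (0.199). In the 5 fits the log2 fold change was still between −1.35 and −1.05.

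*Mx2* did not follow *Mx1*. Its normalized counts were 392, 195, and 255 in WT replicates 2, 3, and 4 and 287, 297, and 383 in the *Irf1-/-* replicates. WT replicates 2 and 3 were the highest and the lowest of all 6 libraries, so the WT range enclosed the *Irf1-/-* range. The log2 fold change was 0.25 (limma, SE 0.25, 95% confidence interval −0.29 to 0.79, adjusted *P* = 0.713), and the 6 fits that each left out 1 library gave 0.016 to 0.52. Whether the fold changes of *Mx1* and *Mx2* differ from each other was not tested.

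*Samd9l* encodes a cytosolic factor that restricts poxviruses and halts translation, and germline mutations that activate its human counterpart cause bone marrow failure. Its level was the steadiest of the 9 genes in WT HSCs, at 5137, 5160, and 5158 normalized counts in replicates 2, 3, and 4 (coefficient of variation 0.256%). *Irf1-/-* replicates 2, 3, and 4 had 5330, 4966, and 4846 and so lay on both sides of the WT libraries. The log2 fold change was −0.031, or 0.014 after quantile normalization, with a 95% confidence interval of −0.21 to 0.15 (limma, adjusted *P* = 0.919).

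*Sp100* encodes a scaffold of the PML nuclear bodies, which silence the genomes of DNA viruses that enter the nucleus. It had 6845, 6554, and 6486 normalized counts in WT replicates 2, 3, and 4 and 5531, 6129, and 5347 in *Irf1-/-* replicates. All *Irf1-/-* libraries were lower, but the *Irf1-/-* mean was still 85.5% of the WT mean and the gene was not called (limma, log2 fold change −0.23, SE 0.087, adjusted *P* = 0.194). *Bst2* encodes tetherin, which holds budding enveloped virions at the cell surface. Its normalized counts were 3980, 3793, and 3999 in WT and 2922, 4016, and 3220 in *Irf1-/-* replicates 2, 3, and 4.

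For *Bst2*, *Irf1-/-* replicate 3 was above all 3 WT libraries and the other *Irf1-/-* libraries were below them. The log2 fold change was −0.23 (limma, SE 0.11, 95% confidence interval −0.47 to 0.016, adjusted *P* = 0.350). Tetherin is also the antigen by which plasmacytoid dendritic cells are often recognized. *Siglech*, another marker of those cells, had 18.1, 9.02, and 69.9 normalized counts in WT replicates 2, 3, and 4. The *Irf1-/-* replicates had 8.53, 18.1, and 22.8. *Siglech* was counted from 8 to 65 reads per library, and the part of such cells in the level of *Bst2* was not tested.

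**Figure D2:**
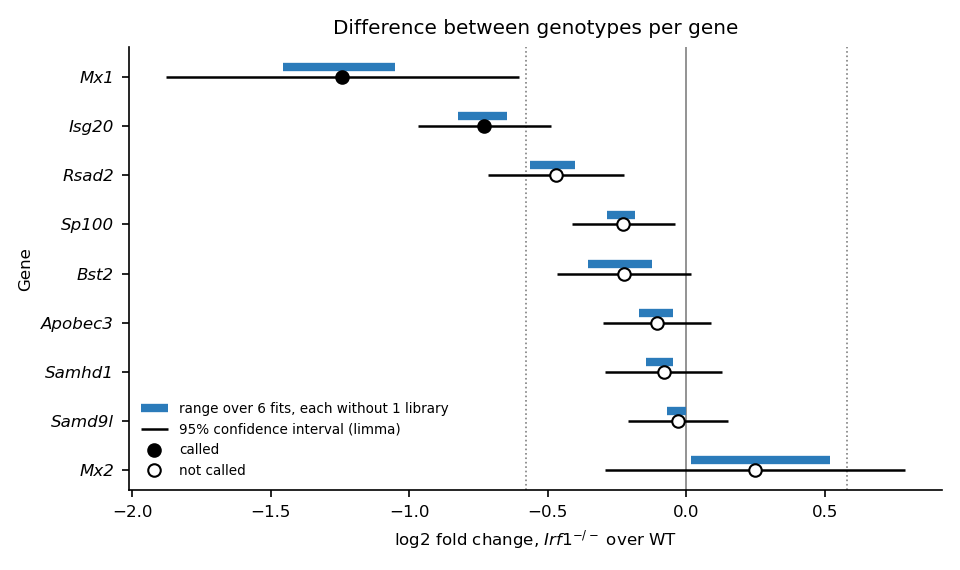
Log2 fold changes (*Irf1-/-* over WT, horizontal axis) of the 9 genes on the log2(normalized count + 1) scale, with 95% confidence intervals from limma as thin lines and the range over 6 fits that each left out 1 library as thick bars. Filled symbols mark the called genes *Mx1* and *Isg20*, and dotted lines mark the fold change threshold of 0.58 in both directions.

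The libraries also differed in the number of genes with at least 1 read. This number was above the median in *Irf1-/-* replicates 2 and 4 (21903 and 21703) and WT replicate 4 (22249) and below it in *Irf1-/-* replicate 3 (21064) and WT replicates 2 and 3 (21660 and 21106). With a term for this division, chosen after seeing the data, *Isg20* was still called and *Mx1* was not (limma, log2 fold change −1.21, adjusted *P* = 0.0518).

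Levels of different genes were compared per kilobase of exon. In WT HSCs, *Bst2* had the highest level, at 5136 ± 149 normalized counts per kb (SD, *n* = 3 mice), above 96.5% of the 14660 tested genes with a known exon length. *Apobec3* followed at 3329 ± 192 per kb. *Isg20* had 1347 ± 19.6, *Samd9l* 950 ± 2.43, *Sp100* 877 ± 25.2, *Rsad2* 539 ± 61.4, and *Samhd1* 348 ± 22.5 normalized counts per kb. The lowest were *Mx2* at 116 ± 41.7 and *Mx1* at 58.0 ± 11.3 per kb, the latter above 33.2% of genes.

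The ranges of no neighbours in this order overlapped in WT HSCs. These ranges do not include error in the exon length, which joins all exons listed for a symbol. The order under other lengths was not tested. In *Irf1-/-* HSCs, *Isg20* fell to 817 ± 104 per kb and was placed after *Samd9l* (930 ± 46.5), and its range of 726 to 930 overlapped those of *Samd9l* (893 to 983) and *Sp100* (708 to 811). The *Irf1-/-* ranges of *Rsad2* (355 to 413) and *Samhd1* (313 to 358) overlapped as well. The order of the other genes was the same in both genotypes.

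**Figure D3:**
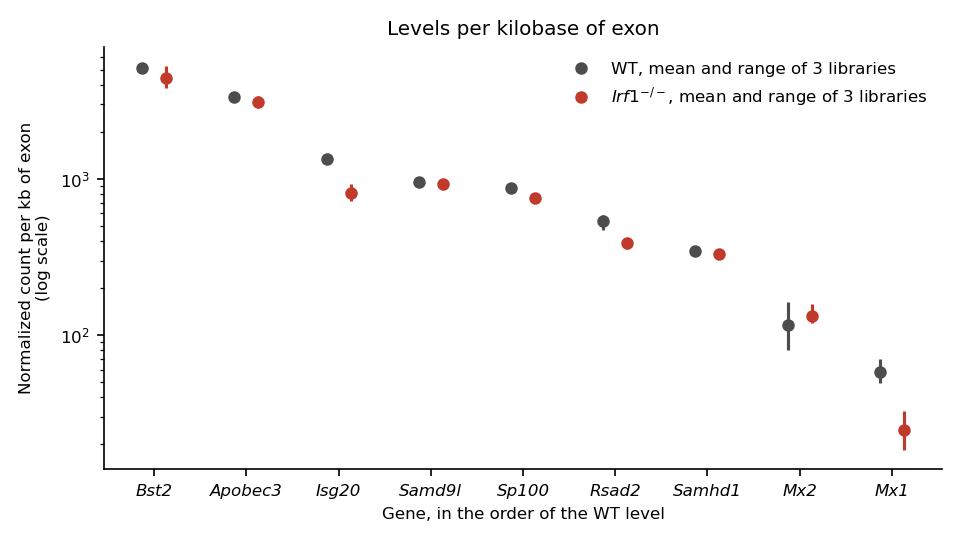
Normalized counts per kilobase of exon (vertical axis, log scale) of the 9 genes in the order of their WT level, as the mean (point) and range (line) of 3 libraries per genotype. Levels run from 5136 per kb for *Bst2* to 58.0 per kb for *Mx1* in WT HSCs, and *Isg20* drops below *Samd9l* in *Irf1-/-* HSCs.

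For the called genes, the tested genes with the most similar pattern over the 6 libraries were looked up among those averaging at least 100 normalized counts. The 3 most like *Mx1* were *Ly6a* (Pearson *r* = 0.994 on log2 values), *Psmb4* (0.991), a proteasome subunit, and *4930523C07Rik* (0.987). The 3 most like *Isg20* were *Nudt19* (*r* = 0.997), *Psme2* (0.995), an IFN-inducible proteasome activator subunit, and *Gnb2* (0.995). These are the highest values among all genes searched over 6 libraries and describe likeness only. Of the 6, only *Psme2* was called (limma, log2 fold change −0.85, adjusted *P* = 1.64e-04), and its call was lost without the intensity trend (limma, adjusted *P* = 0.0705).

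The 9 genes lie on 8 chromosomes in assembly GRCm38.p6, and 0 of them on that of *Irf1*. *Mx1* and *Mx2* are separated only by *Fam3b* among tested genes. The nearest tested genes were 2 on each side of a member, except for *Samd9l*, which had none before it on its chromosome. They came to 31 other genes, of which limma and edgeR called 0 and DESeq2 called 1 higher. Over all genes, limma called 0.954% lower and 0.96% higher, edgeR 0.927% and 0.933%, and DESeq2 2.25% of 13094 higher. Of the 31 genes, 3 were lower and 3 higher at an unadjusted *P* under 0.05 in limma, against 8.07% and 8.38% of tested genes. *Cmpk2*, the neighbour of *Rsad2*, encodes a nucleotide kinase whose product feeds the viperin reaction. Its normalized counts were 5127, 4486, and 4459 in WT and 3457, 4471, and 3070 in *Irf1-/-* replicates 2, 3, and 4. The groups overlapped by the small margin of *Irf1-/-* replicate 3 over WT replicate 4 (limma, log2 fold change −0.37, adjusted *P* = 0.138).

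*Sp110* and *Sp140*, which precede *Sp100* in gene order and belong to its family, had log2 fold changes of −0.29 (limma, adjusted *P* = 0.112) and −0.21 (limma, adjusted *P* = 0.370). Neither had a *Irf1-/-* library as high as its lowest WT library, as for *Sp100*. Reads of stretches that the family shares could have been assigned to any of the 3 genes or left out. *Cbx7*, which overlaps *Apobec3*, was higher in all *Irf1-/-* libraries, with a fold change under the threshold (limma, log2 fold change 0.37, adjusted *P* = 0.0362).

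Promoters of the 9 genes were searched for motifs that IRF1 and other IFN-activated factors are known to bind. RefSeq promoters of GRCm38.p6, from 250 bases before to 50 bases after the transcript start, were held for 7 of the 9 genes (11 promoters), and *Mx1* and *Mx2* had no entry. The ISRE core searched was GAAANNGAAA and the core of the IFN-γ-activated site (GAS) was TTCNNNGAA, both on either strand. Of all 32851 promoters, 3.44% held the ISRE core and 8.30% the GAS core, and of their 27025 genes 3.99% and 9.55% had a promoter with it. The ISRE core was found in *Rsad2*, *Bst2*, and 1 of the promoters of *Apobec3*, and the GAS core in *Bst2*, *Samhd1*, and 1 of the promoters of *Isg20*. In *Bst2* there were 2 ISRE cores that overlapped each other, and the first of them overlapped the GAS core. Neither core was in the windows of *Samd9l* and *Sp100*.

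The 3 promoters with an ISRE core are shown with the core in capitals, and that of *Isg20* with its GAS core in capitals because *Isg20* was the called gene with a promoter entry. They are chr12:26456403-26456702 (*Rsad2*, minus strand), chr8:71537423-71537722 (*Bst2*, minus strand), chr15:79892158-79892457 (*Apobec3*, plus strand), and chr7:78913174-78913473 (*Isg20*, plus strand), each written 5′ to 3′ along the strand of the gene. A match is a description, not a site or a cause. None of the 3 genes with an ISRE core in these windows was called, with log2 fold changes of −0.47 (*Rsad2*), −0.23 (*Bst2*), and −0.10 (*Apobec3*).
Rsad2: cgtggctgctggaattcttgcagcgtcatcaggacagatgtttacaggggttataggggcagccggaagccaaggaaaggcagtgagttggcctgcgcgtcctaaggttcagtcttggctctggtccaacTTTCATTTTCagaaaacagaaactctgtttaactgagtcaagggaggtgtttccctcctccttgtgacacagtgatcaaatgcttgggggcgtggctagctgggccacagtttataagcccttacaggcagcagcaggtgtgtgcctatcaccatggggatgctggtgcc
Bst2: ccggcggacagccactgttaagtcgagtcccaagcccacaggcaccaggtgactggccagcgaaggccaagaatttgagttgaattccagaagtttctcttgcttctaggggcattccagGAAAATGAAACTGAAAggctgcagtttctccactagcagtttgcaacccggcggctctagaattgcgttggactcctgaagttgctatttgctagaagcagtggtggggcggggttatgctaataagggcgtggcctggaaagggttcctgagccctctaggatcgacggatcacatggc
Apobec3: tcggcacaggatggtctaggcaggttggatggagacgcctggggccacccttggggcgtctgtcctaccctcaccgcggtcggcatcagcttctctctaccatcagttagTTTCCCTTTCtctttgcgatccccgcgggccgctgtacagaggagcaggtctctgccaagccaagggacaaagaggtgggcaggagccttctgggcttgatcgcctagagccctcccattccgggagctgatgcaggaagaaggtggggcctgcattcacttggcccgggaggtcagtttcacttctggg
Isg20: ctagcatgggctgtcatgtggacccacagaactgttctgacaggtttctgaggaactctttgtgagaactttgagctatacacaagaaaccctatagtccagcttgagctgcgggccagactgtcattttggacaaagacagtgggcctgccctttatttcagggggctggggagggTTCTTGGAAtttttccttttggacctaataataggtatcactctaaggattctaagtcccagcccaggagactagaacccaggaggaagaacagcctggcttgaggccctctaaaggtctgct

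Genes that work with the restriction factors were followed as lists. Samhd1 acts against the supply of dNTPs, and 0 of 12 genes of dNTP synthesis and salvage were called by limma, edgeR, or DESeq2, although 8 were lower and 0 higher at an unadjusted *P* under 0.05 in limma, against 8.07% of tested genes lower. Their median log2 fold change was −0.36. *Dut*, which removes dUTP, had 6494, 6814, and 5806 normalized counts in WT and 4585, 5111, and 4340 in *Irf1-/-* replicates 2, 3, and 4. *Dut* was lower in all *Irf1-/-* libraries and had the smallest *P* of the 3 genes that passed on the adjusted *P* but stayed under the fold change threshold (limma, log2 fold change −0.45, adjusted *P* = 0.0225, or 0.0108 to 0.132 with 1 library left out). *Rrm1*, a subunit of ribonucleotide reductase and the most abundant gene of the list, had a log2 fold change of −0.41 (limma, adjusted *P* = 0.0741).

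The restriction of viruses by SAMHD1 is switched off by cyclin-dependent kinases in cycling cells. Of 7 kinases, cyclins, and inhibitors, limma and edgeR called 0, and 4 were lower and 1 higher at an unadjusted *P* under 0.05 in limma, against 8.07% and 8.38% of tested genes (median log2 fold change −0.42). The higher one was the inhibitor *Cdkn1a*, which DESeq2 called (log2 fold change 0.75, adjusted *P* = 0.0267), as did limma with the term for genes detected (0.90, adjusted *P* = 0.0459) but not without it (0.78, adjusted *P* = 0.1003). *Cdk1*, the mitotic kinase, had 4881, 5058, and 4036 normalized counts in WT and 3505, 3660, and 2771 in *Irf1-/-* replicates 2, 3, and 4. Its groups did not overlap, and its fold change was under the threshold (limma, log2 fold change −0.50, adjusted *P* = 0.0392), whereas it was called without WT replicate 4 (limma, −0.60, adjusted *P* = 0.0139). The adjusted *P* of *Cdk1* was above 0.05 without *Irf1-/-* replicate 2 (limma, adjusted *P* = 0.0857) or 4 (0.197), without WT replicate 2 (0.133) or 3 (0.156), and without the intensity trend (0.326). *Ccnd2*, the most abundant gene of the list, had a log2 fold change of −0.034, or 0.037 after quantile normalization.

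Of 15 genes for partners of Sp100 in PML nuclear bodies, limma, edgeR, and DESeq2 called 0, and 2 were lower and 0 higher at an unadjusted *P* under 0.05 in limma, against 8.07% and 8.38% of tested genes (median log2 fold change −0.052). *Cbx5*, a heterochromatin protein that binds Sp100, had a log2 fold change of −0.33 (limma, adjusted *P* = 0.0966), and the abundant *Sumo3*, a modifier of PML body proteins, one of −0.14 (limma, adjusted *P* = 0.442).

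None of the enzymes related to the other members was called by limma or edgeR. Of 5 tested deaminases, DESeq2 also called 0 and 0 had an unadjusted *P* under 0.05 in limma. *Apobec1* had a log2 fold change of −0.21 (limma, adjusted *P* = 0.326) and *Adar* one of 0.11 (limma, adjusted *P* = 0.663). Of 8 tested nucleases, DESeq2 called 0, and 1 had an unadjusted *P* under 0.05, *Khnyn*, an endonuclease that works with the antiviral protein ZAP (limma, log2 fold change 0.18, adjusted *P* = 0.292), while *Trex1* was listed at 0. Of 7 members of the dynamin superfamily, to which the Mx proteins belong, DESeq2 called *Dnm3* higher, and 1 was lower and 1 higher at an unadjusted *P* under 0.05 in limma. Of the 13094 genes that DESeq2 tested, it called 2.25% higher. Of the 17404 genes tested in limma, 8.07% were lower and 8.38% higher at an unadjusted *P* under 0.05. *Dnm3* had 44.4, 38.3, and 83.9 normalized counts in WT and 110, 157, and 145 in *Irf1-/-* replicates 2, 3, and 4 (limma, log2 fold change 1.36, adjusted *P* = 0.0661), and without WT replicate 4 limma called it as well (1.70, adjusted *P* = 0.0173), as it did with a replicate block (adjusted *P* = 0.0483). It was not called in the other 5 fits that left out 1 library (limma, adjusted *P* = 0.120 to 0.240), by edgeR (adjusted *P* = 0.0840), or without a filter on low values (limma, adjusted *P* = 0.109). *Dnm2* had a log2 fold change of 0.029, or −0.0021 after median centring.

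Among 21 other tested restriction factors (*Ch25h* was below the filter), limma called 1 lower and 1 higher, against 0.954% and 0.96% of tested genes. The median log2 fold change was 0.023, or −0.0076 after median centring. At an unadjusted *P* under 0.05 in limma, 4 were lower and 3 higher, against 8.07% and 8.38% of tested genes. A further gene, higher in *Irf1-/-* HSCs, passed on the adjusted *P* but stayed under the fold change threshold. *Zbp1*, a sensor of Z-form nucleic acids that triggers cell death, had 1263, 1250, and 1084 normalized counts in WT and 51.2, 25.1, and 51.9 in *Irf1-/-* replicates 2, 3, and 4. This fall (limma, log2 fold change −4.85, SE 0.28, adjusted *P* = 1.61e-07) was larger than that of any of the 9 genes. *Ifitm1*, which hinders fusion of virus and cell membranes, had 23157, 14626, and 20879 normalized counts in WT and 28994, 36671, and 32849 in *Irf1-/-* replicates. It was called higher (limma, log2 fold change 0.77, SE 0.14, adjusted *P* = 0.0103), but without WT replicate 3 the difference of 0.57 was under the threshold, and without the intensity trend it was not called (limma, adjusted *P* = 0.278).

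Of 20 other IFN-stimulated genes, 4 were called lower and 0 higher in limma, edgeR, and DESeq2 alike, whereas limma called 0.954% of all tested genes lower. At an unadjusted *P* under 0.05 in limma, 8 of the 20 were lower and 0 higher, against 8.07% of tested genes lower. Their median log2 fold change of −0.20 was close to the −0.23 of the 9 restriction factors. *Ifit3*, which binds viral RNA together with related proteins, fell from 514 ± 53.9 (SD, *n* = 3 mice) to 143 ± 48.3 normalized counts (limma, log2 fold change −1.89, adjusted *P* = 0.00103). *Oas3*, which makes the second messenger that activates RNase L, fell from 2605 ± 172 to 1067 ± 237 (limma, −1.31, adjusted *P* = 1.24e-04). *Ifit2* fell by 0.69 on the log2 scale (limma, adjusted *P* = 0.00111). *Ifi27* fell by 0.83 (limma, adjusted *P* = 0.0177). Leaving out *Irf1-/-* replicate 2, *Irf1-/-* replicate 4, or WT replicate 2 removed that call (limma, adjusted *P* = 0.0857, 0.0538, and 0.0591). Without the intensity trend none of the 4 was called (limma, adjusted *P* = 0.0892 for *Ifit2*, 0.105 for *Ifit3*, 0.0868 for *Oas3*, and 0.314 for *Ifi27*). Reads of stretches shared within the Ifit and Oas families could have been assigned to another member or left out.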

How the data were processed

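Samples were grouped by the genotype in their labels, 3 mice per group. The values the authors deposited are a signal, namely counts divided by a DESeq2 size factor of each library. They come from Trim Galore, HISAT2 (build mm39), and Htseq-count. All values (100.0%) were whole multiples of 1 read within 0.01, so whole reads were recovered. limma 3.58.1 (intensity trend) was fitted on log2(value + 1) over the 17404 genes with a mean of at least 10, with Benjamini-Hochberg adjustment over all of them. This scale understates changes of low genes. edgeR 4.0.16 and DESeq2 1.42.0 were run on recovered reads. The code was tried on simulated data, and not all changed genes were recovered. Exon lengths came from GENCODE vM1 by symbol, gene order and promoters from RefSeq (GRCm38.p6, no positions compared with mm39).

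The members and lists were chosen with earlier results of these data known. Named are all members, *Irf1*, every called gene of a list or else its gene with the smallest *P* and its most abundant gene, and the genes most like each called member. Neighbours, markers, *Cdkn1a*, and *Cmpk2* were named after their values were seen. One list and 1 gene of another list are not reported here. The alternatives changed the pseudocount, filter, trend, scaling, tool, and thresholds, added a replicate block, or left out 1 library.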

Additional observations from a re-analysis of the deposited data

How the results depend on the processing

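Over the 18 alternatives, *Isg20* kept its call in 17 and *Mx1* in 10. The alternative without a threshold on the fold change used the main fit and could not remove a call. Without the intensity trend in limma, 0 members were called, as were 33 genes lower and 7 higher. *Mx1* alone lost its call without a filter on low values or with a term for the number of genes detected, which left 1 member called in each. Without a threshold on the fold change, 260 genes were called lower and 301 higher. DESeq2 called 295 genes higher. With single libraries left out, 1 to 2 members, 105 to 265 genes lower, and 83 to 304 genes higher were called. The labels do not say whether equal replicate numbers pair the mice. Correlations of deviations were −0.094, 0.246, and 0.147 for replicates 2, 3, and 4. The highest value of all pairs, 0.251, was for *Irf1-/-* replicate 2 and WT replicate 4. So few correlations cannot decide whether the mice were paired. With the replicate block, 196 genes were called lower and 219 higher, with 2 members lower.

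*Samd9l*, *Ccnd2*, and *Dnm2*, with differences near 0, reversed direction. *Samd9l* was 0.014 and *Ccnd2* 0.037 after quantile normalization, *Ccnd2* was 0.0088 with the term for genes detected, and *Dnm2* was −0.0021 after median centring. With single libraries left out, *Ccnd2* ranged from −0.092 to 0.042 and *Dnm2* from −0.056 to 0.092. Several cell type markers also changed sign when single libraries were left out, such as *Ngp* (−1.64 to 1.67) and *Siglech* (−1.17 to 0.24). The cause was not tested. *Mx1* had the fewest reads of the members, 63 to 240 per library.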
